A study of Saccharomyces cerevisiae with 23 samples.

Results

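Budding yeast taken at 2 h in sporulation medium was set against the same strain at 0 h, 1 library of total RNA at each time out of 23 libraries in the series. The strain, named A 33606 in the labels, has its IME1 and IME4 genes driven by the promoter of CUP1, which responds to copper, according to the series title. Ime1 is the master activator of meiosis, and Ime4 methylates messenger RNA as meiosis starts. Cells were grown to saturation in rich YPD medium, then overnight in BYTA, a presporulation medium, and were moved to SPO, the sporulation medium. The 2 h library therefore comes from cells starved in SPO for 2 h and the 0 h library from cells at the transfer. Copper sulphate, 25 mM in the labels, was given after 2 h. No label says whether the 2 h library was taken before or after that addition, so effects of the medium, of time and of an early response to copper cannot be told apart. All libraries share the strain and both copper-driven genes, and nothing says that the times came from separate cultures. A strain without those genes, or a culture kept in BYTA, was not analysed here.

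Sporulation medium in general offers a non-fermentable carbon source and no nitrogen. Yeast cells deprived of good nitrogen sources release nitrogen catabolite repression: the GATA factors Gln3 and Gat1 enter the nucleus and switch on permeases and enzymes that gather poor nitrogen sources, while Dal80 and Gzf3, related repressors, bind the same GATA sites. Starved cells also recycle protein through autophagy, the vacuole and the proteasome, and they stop making ribosomes, whose assembly genes share promoter elements bound by factors of the growth pathways.

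The deposited values were FPKM, fragments scaled to gene length and library depth, each with the authors' lower and upper confidence bounds. Differences below are of log2(FPKM + 1), 2 h minus 0 h, so those of low genes are understated. A gene was eligible with at least 300 bases and at least 10 FPKM in either library, which 3629 of 6304 genes of that length met; the other 2675 were under 10 FPKM in both. It was called higher or lower at 2 h where the difference was at least 1 (2-fold) and the bounds of the libraries lay apart. There are no replicates and there is no test, and the bounds cover counting error only. The bounds imply 941169 fragments on genes at 2 h and 691892 at 0 h, with a median of 76.2 and 56.0 fragments per eligible gene. Values of bulk RNA cannot tell fewer cells of a type from less RNA per cell.

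Of the 3629 eligible genes 719 were called higher at 2 h, a share of 19.8%, and 256 were called lower, a share of 7.05%, as the plot of levels at 2 h and 0 h shows. The median difference of all eligible genes was 0.38, so most genes lay a little above 0. Dividing the 2 h library by a median-of-ratios factor of 1.20 brought that median to 0.13, with 438 genes called higher (13.0%) and 373 lower (11.0%). A summed-FPKM scaling divided the 2 h library by 1.33, the ratio of 2 h to 0 h in FPKM summed over genes of at least 300 bases. It brought the median to -0.01, with 320 called higher (9.84%) and 459 lower (14.1%). The higher genes made up 73.7% of all calls as deposited, 54.0% after the first scaling and 41.1% after the second, so which direction prevails rests on the scaling. In all 3 versions 320 genes were higher and 256 lower, and every gene named below as higher or lower is among them unless a scaling is mentioned. At least 4-fold differences were called for 163 higher and 72 lower genes, and at least 8-fold ones for 49 and 28.

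**Figure D1:**
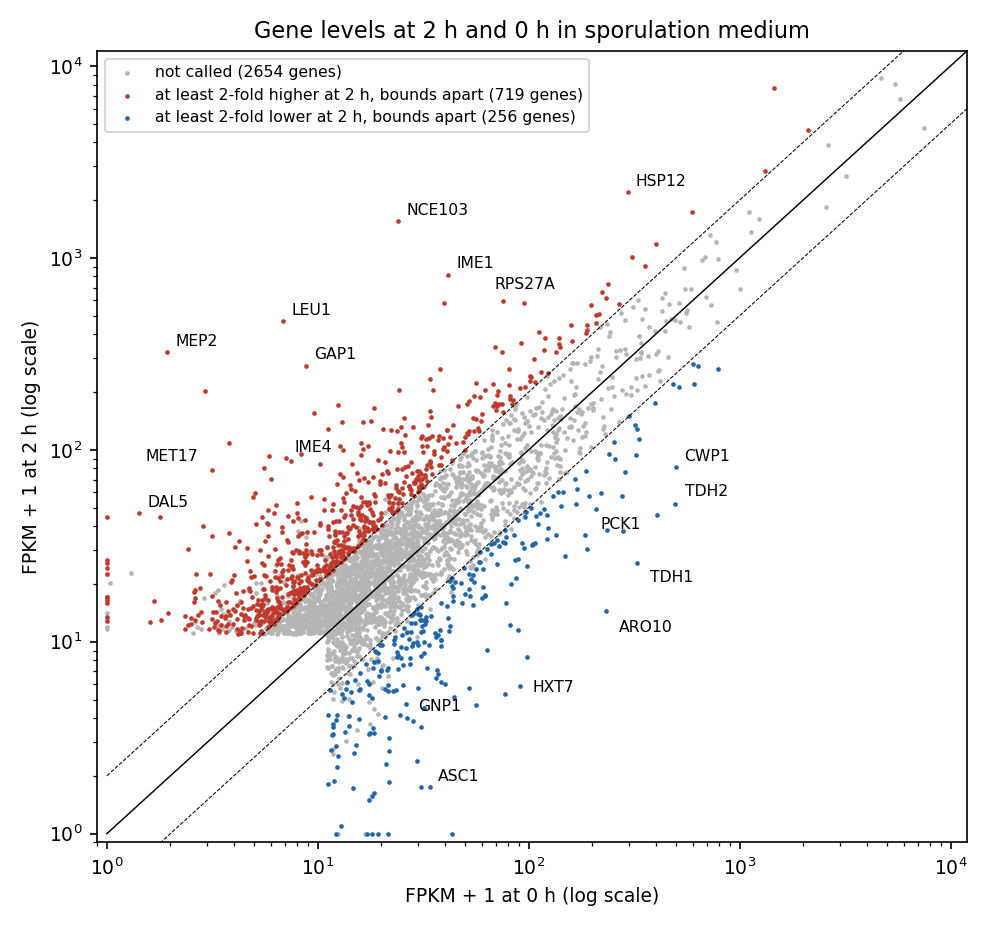
Levels of the 3629 eligible genes, FPKM + 1 at 2 h on the vertical axis and at 0 h on the horizontal axis, both on log scales. Each point is 1 gene, red where called higher at 2 h (719), blue where called lower (256) and grey where not called; the solid line marks equal levels and the dashed lines 2-fold. MEP2 lies farthest above the line, and ASC1, ARO10 and HXT7 lie far below it.

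The copper-driven genes were both higher at 2 h. IME1 (YJR094C, chromosome X, 604569 to 605651 in build R64) stood at 818 FPKM (bounds 786 to 851) at 2 h against 40.4 FPKM (32.9 to 47.9) at 0 h, a difference of 4.31. IME4 stood at 89.7 FPKM at 2 h against 6.08 FPKM at 0 h, a difference of 3.68. CUP1-1 and CUP1-2, the copper metallothionein genes that own the promoter, are near-identical copies wholly under other rows, so their 126 and 185 FPKM at 2 h, against 49.6 and 0.000518 FPKM at 0 h, are uncertain. SOD1, a superoxide dismutase also activated by copper, was at 303 FPKM at 2 h against 455 FPKM at 0 h and was not called. The copper importers CTR1 and CTR3, which are shut off when copper is plentiful, were lower, at 23.7 and 40.2 FPKM at 2 h against 97.1 and 109 FPKM at 0 h. CTR2, which exports copper from the vacuole, was higher as deposited (48.0 FPKM at 2 h against 20.7 FPKM at 0 h) but not after either scaling.

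Of the markers of meiosis under way, 26 of 33 early genes and 34 of 38 middle and late genes were under the level or length limit. The 33 early meiotic genes had a median of 2.11 FPKM at 2 h against 2.12 FPKM at 0 h, summed levels of 200 FPKM at 2 h against 126 FPKM at 0 h, and 7 eligible members. Over all 33 the median difference was 0.32. All 7 eligible members lay above 0, with a median difference of 0.87 beside 0.38 for all eligible genes. As deposited 3 of them were called higher (42.9%, beside 19.8% of all eligible genes). Most of the 7 met the level limit only through the 2 h library. Of the 7 DMC1, the meiotic strand-exchange protein, was called higher (13.5 FPKM at 2 h against 3.03 FPKM at 0 h), as were REC107 as deposited only and SPO1 except after summed-FPKM scaling. MER1 and GMC2 were listed at 0 at 2 h, and HOP2 and SPO16 were listed at 0 at 0 h. IME2, the kinase that follows IME1, was at 3.44 FPKM at 2 h against 3.68 FPKM at 0 h, and NDT80, the activator of the middle genes, at 1.18 FPKM at 2 h against 3.25 FPKM at 0 h. The 38 middle and late genes summed to 124 FPKM at 2 h against 101 FPKM at 0 h. Of the 23 haploid-specific and mating genes, which are silent in a/alpha diploid cells, STE2 and STE3 lay at or below 1.39 FPKM in both libraries and MF(ALPHA)1 and STE18 were listed at 0 in both. Over all 23 members the median was 2.84 FPKM at 2 h against 1.42 FPKM at 0 h, with a median difference of 0.76. Most members thus lay higher at 2 h, not MFA1 alone, though 22 were under the level or length limit. The summed level of that list, 1680 FPKM at 2 h against 257 FPKM at 0 h, came mostly from MFA1, a row of 111 bases at 1409 FPKM at 2 h against 188 FPKM at 0 h, and rows so short give unstable FPKM. FUS3, a kinase of the mating pathway, was the 1 eligible member, at 19.5 FPKM at 2 h against 6.72 FPKM at 0 h.

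The promoters of genes at the heart of the nitrogen and growth responses are shown first, from 250 bases before to 50 after the start codon, read from the RefSeq genome of build R64 on the strand of the gene, 5′ to 3′. MEP2 (chromosome XIV, 357203 to 357502, plus strand), GAP1 (chromosome XI, 514813 to 515112, plus strand) and DAL5 (chromosome X, 719416 to 719715, plus strand) are shown for the GATA element. Capitals mark GATAAG on either strand.
MEP2: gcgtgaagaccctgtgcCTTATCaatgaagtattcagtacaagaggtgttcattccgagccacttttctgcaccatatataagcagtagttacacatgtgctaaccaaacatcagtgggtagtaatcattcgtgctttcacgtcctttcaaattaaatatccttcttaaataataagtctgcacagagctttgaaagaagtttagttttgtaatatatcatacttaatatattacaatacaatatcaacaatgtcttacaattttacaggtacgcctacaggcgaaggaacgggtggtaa
GAP1: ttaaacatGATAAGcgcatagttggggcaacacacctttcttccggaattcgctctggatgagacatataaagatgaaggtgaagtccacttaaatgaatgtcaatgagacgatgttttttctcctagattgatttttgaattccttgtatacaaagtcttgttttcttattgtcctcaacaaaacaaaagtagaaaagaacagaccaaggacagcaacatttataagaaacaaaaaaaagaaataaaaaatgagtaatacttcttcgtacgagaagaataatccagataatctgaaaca
DAL5: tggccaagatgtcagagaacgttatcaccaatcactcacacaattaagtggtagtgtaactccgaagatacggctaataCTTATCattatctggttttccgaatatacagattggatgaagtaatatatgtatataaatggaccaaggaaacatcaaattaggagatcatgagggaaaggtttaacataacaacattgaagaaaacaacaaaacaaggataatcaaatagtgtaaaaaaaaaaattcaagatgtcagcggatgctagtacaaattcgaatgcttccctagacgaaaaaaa

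Counted from the A of the start codon, the match begins at position -233 in MEP2, -242 in GAP1 and -171 in DAL5. GATAAG on either strand was found in 22.6% of 673 promoters of genes called higher, 8.30% of 229 promoters of genes called lower and 15.9% of the 3326 eligible promoters. Over all 5675 promoters of genes of at least 300 bases the share was 14.8%. The allantoin and urea list held it in 7 of 11 promoters, 4 of them with 2 or more matches. The nitrogen regulators held it in 6 of 12, proline, GABA and arginine breakdown in 3 of 10, and the ammonium permeases in 2 of 5. Arginine and lysine synthesis held it in 6 of 10 and 4 of 10, with median differences of 0.31 and 0.24 beside 0.38 for all eligible genes. The nitrogen-controlled amino acid permeases held it in 4 of 26, near the share of all promoters, and ammonia assimilation (0 of 8) and the SPS permeases (0 of 9) did not hold it in this window. With the window widened to 500 bases before the start, a choice made after the data were seen, the shares were 31.4%, 13.5%, 24.1% and 22.7%, and 11 of 11 in the allantoin and urea list. A match is a run of letters and not a bound site, and matches of different motifs can overlap.

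Ammonium permeases differed sharply among themselves. MEP2 (YNL142W, chromosome XIV, 357453 to 358952), the high-affinity permease and ammonium sensor, had 323 FPKM (bounds 306 to 340) at 2 h against 0.937 FPKM (0 to 1.87) at 0 h, a difference of 7.39, the widest of all eligible genes. MEP3, of low affinity, was at 20.9 FPKM at 2 h against 3.84 FPKM at 0 h, and MEP1, of intermediate affinity, at 29.6 FPKM at 2 h against 21.2 FPKM at 0 h with overlapping bounds. MEP2 was thus the highest of the MEP genes at 2 h and the lowest of them at 0 h. Of the 5 members of this list 2 were higher and 1 lower under each scaling. ATO2, a relative of the acetate permease ADY2 linked to ammonium export, was lower, at 274 FPKM at 2 h against 636 FPKM at 0 h.

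Amino acid permeases had calls in both directions. Of 16 eligible permeases of the nitrogen-controlled list 8 were called higher and 4 lower, with a median of 1.02 (6 and 5 after median-of-ratios scaling, 5 and 6 after summed-FPKM scaling). GAP1, the general permease, was at 273 FPKM (260 to 287) at 2 h against 7.75 FPKM (5.30 to 10.2) at 0 h. CAN1, the arginine permease, was at 73.6 FPKM at 2 h against 11.8 FPKM at 0 h, AGP1, of broad range, at 52.5 FPKM at 2 h against 12.3 FPKM at 0 h, and DIP5, for glutamate and aspartate, at 220 FPKM at 2 h against 67.0 FPKM at 0 h. GNP1, BAP3 and TAT1, which take up neutral amino acids and are induced through the SPS sensor of outside amino acids, were lower: GNP1 was at 3.69 FPKM at 2 h against 55.5 FPKM at 0 h, BAP3 at 1.23 FPKM at 2 h against 11.3 FPKM at 0 h, and TAT1 at 8.23 FPKM at 2 h against 25.1 FPKM at 0 h. The SPS list held both kinds, since AGP1 and DIP5 belong to it too, with 2 higher and 3 lower of 6 eligible members under each scaling. OPT2, an oligopeptide transporter, was lower (76.3 FPKM at 2 h against 186 FPKM at 0 h), and PUT4, the proline permease, at 36.2 FPKM at 2 h against 71.9 FPKM at 0 h, was called lower only after scaling.

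Every eligible gene of allantoin and urea use was called higher, 7 of 7, with 4 of the 11 members under the level or length limit and a median of 2.12. The eligible members had a median of 35.9 FPKM at 2 h against 2.81 FPKM at 0 h. Most of them met the level limit only through the 2 h library, so the count of calls leans on that limit. Over all 11 members the median difference was 1.95. After median-of-ratios scaling 6 of 6 were called and after summed-FPKM scaling 4 of 6. DAL5, the allantoate permease, was at 45.7 FPKM (39.6 to 51.8) at 2 h against 0.425 FPKM (0 to 1.03) at 0 h. DAL3, ureidoglycolate lyase, stood at 43.5 FPKM at 2 h against 0.789 FPKM at 0 h, DUR12, urea amidolyase, at 35.9 FPKM at 2 h against 2.81 FPKM at 0 h, and DAL2, allantoicase, at 107 FPKM at 2 h against 23.8 FPKM at 0 h. The enzymes thus went with the permease. Their activators DAL82 (17.6 FPKM at 2 h against 5.38 FPKM at 0 h) and DAL81 (21.5 FPKM at 2 h against 8.46 FPKM at 0 h) were higher too, though not after summed-FPKM scaling.

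Breakdown of proline, GABA and arginine showed the same direction in 7 of 9 eligible genes, with a median of 1.69 and with 6 higher and 1 lower after either scaling. CAR1, arginase, was at 61.5 FPKM at 2 h against 13.3 FPKM at 0 h, and CAR2, the next enzyme of arginine breakdown, at 261 FPKM at 2 h against 80.1 FPKM at 0 h. PUT1, proline oxidase, was at 112 FPKM at 2 h against 36.1 FPKM at 0 h and its activator PUT3 at 16.9 FPKM at 2 h against 3.11 FPKM at 0 h. UGA1 and UGA2, of GABA use, had 22.0 and 20.9 FPKM at 2 h against 5.76 and 4.71 FPKM at 0 h.

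The regulators of these genes were higher themselves, 8 of 10 eligible members with a median of 1.49 (6 after either scaling). GZF3, a GATA repressor, was at 24.0 FPKM at 2 h against 7.74 FPKM at 0 h. GAT1, a GATA activator, was at 145 FPKM at 2 h against 24.7 FPKM at 0 h and the repressor DAL80 at 107 FPKM at 2 h against 2.80 FPKM at 0 h, but 42.2% of GAT1 and 50.2% of DAL80 lie under other rows, so these values are uncertain. The activator GLN3 (24.1 FPKM at 2 h against 9.92 FPKM at 0 h) and GCN4, the activator of amino acid synthesis (65.8 FPKM at 2 h against 27.9 FPKM at 0 h), were called only as deposited. URE2, which holds Gln3 in the cytoplasm, was at 37.2 FPKM at 2 h against 55.7 FPKM at 0 h and was not called. The kinase NPR1, which stabilises permeases, was higher, at 23.3 FPKM at 2 h against 6.58 FPKM at 0 h.

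Assimilation of ammonia into glutamate was higher in 4 of 7 eligible genes under each scaling, with a median of 1.82. GLT1, glutamate synthase, was at 79.9 FPKM (76.0 to 83.7) at 2 h against 4.58 FPKM (3.63 to 5.53) at 0 h. The glutamate dehydrogenases GDH1 and GDH3 were at 94.4 and 164 FPKM at 2 h, against 7.32 and 17.4 FPKM at 0 h. GDH2, the dehydrogenase of the reverse reaction, was at 47.5 FPKM at 2 h against 69.7 FPKM at 0 h and was not called. GLN1, glutamine synthetase, had 193 FPKM at 2 h against 164 FPKM at 0 h and was not called. ASN1, asparagine synthetase, was higher (40.9 FPKM at 2 h against 10.8 FPKM at 0 h) while its paralogue ASN2 was at 13.9 FPKM at 2 h against 10.4 FPKM at 0 h.

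**Figure D2:**
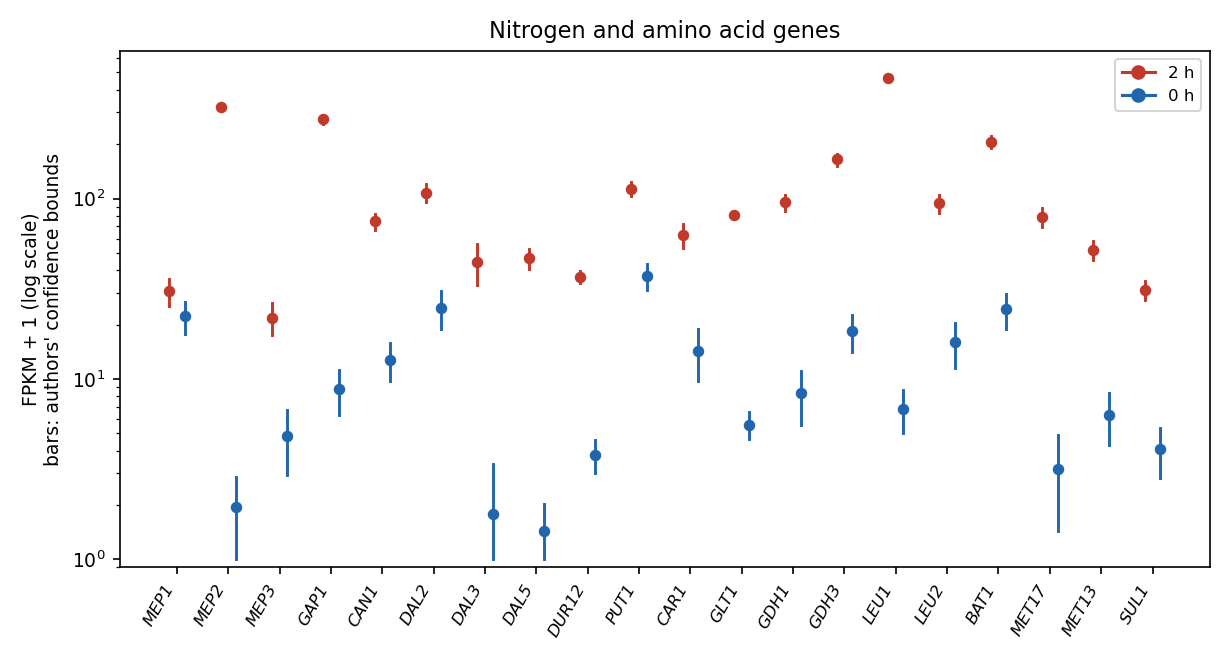
FPKM + 1 on a log scale for 20 nitrogen and amino acid genes, with 2 h (red) left of 0 h (blue) for each gene and the authors' confidence bounds as vertical bars. The bounds overlap for MEP1 alone (29.6 FPKM at 2 h, 21.2 FPKM at 0 h), and MEP2 and LEU1 show the widest gaps.

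Of 11 eligible genes for leucine, isoleucine and valine 7 were called higher (7 and 6 after the scalings), with a median of 1.74. LEU1 (YGL009C, chromosome VII, 476313 to 478652), isopropylmalate isomerase, had 468 FPKM (452 to 483) at 2 h against 5.83 FPKM (3.98 to 7.67) at 0 h, a difference of 6.10. LEU2 was at 93 FPKM at 2 h against 15 FPKM at 0 h, LEU4, the first enzyme of the leucine branch, at 221 FPKM at 2 h against 55.0 FPKM at 0 h, and OAC1, a mitochondrial carrier of the pathway, at 29.1 FPKM at 2 h against 4.33 FPKM at 0 h. The aminotransferase BAT1 of the mitochondria was higher (205 FPKM at 2 h against 23.3 FPKM at 0 h), while BAT2, its cytosolic partner, was at 29.7 FPKM at 2 h against 56.6 FPKM at 0 h and was called lower only after scaling. Among genes shared with isoleucine and valine, ILV3 was higher (65.0 FPKM at 2 h against 18.8 FPKM at 0 h), and ILV5 (282 FPKM at 2 h against 160 FPKM at 0 h) and ILV6 (146 FPKM at 2 h against 137 FPKM at 0 h) were not called. The LEU1 promoter (chromosome VII, 478603 to 478902, minus strand) is shown for the palindrome that the activator Leu3 binds, CCG and CGG with any 4 bases between them, in capitals.
LEU1: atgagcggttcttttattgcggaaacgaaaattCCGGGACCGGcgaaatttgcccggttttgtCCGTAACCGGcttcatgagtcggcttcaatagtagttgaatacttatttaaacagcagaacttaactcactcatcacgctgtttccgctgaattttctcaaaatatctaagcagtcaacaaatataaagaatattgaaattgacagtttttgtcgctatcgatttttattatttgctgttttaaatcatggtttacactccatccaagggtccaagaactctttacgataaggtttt

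The matches begin at positions -217 and -187. This motif was chosen after the data were seen and occurs in 3 of the 13 promoters of the leucine, isoleucine and valine list, in 2.53% of promoters of genes called higher, 1.75% of those called lower and 1.37% of all promoters. With 500 bases before the start it occurs in 8 of the 13. The shares in that window were 5.65% of promoters of genes called higher, 3.93% of those called lower and 3.15% of all promoters.

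Lysine and aromatic amino acid synthesis held no gene that was higher under each scaling. Among genes of arginine synthesis ARG7, an acetyltransferase of the pathway, was higher (36.2 FPKM at 2 h against 7.84 FPKM at 0 h), and ARG1, at 85.5 FPKM at 2 h against 82.2 FPKM at 0 h, was not called. Of 6 eligible genes of histidine synthesis HIS1 alone was called (45.2 FPKM at 2 h against 14.5 FPKM at 0 h), with HIS4 at 20.0 FPKM at 2 h against 25.7 FPKM at 0 h. Of 8 of lysine synthesis LYS12 was lower (10.3 FPKM at 2 h against 29.9 FPKM at 0 h) and LYS5 was higher as deposited only. Of 9 aromatic genes none was higher and ARO2 was lower (11.9 FPKM at 2 h against 30.1 FPKM at 0 h). The medians were 0.31, 0.61, 0.24 and 0.33, beside 0.38 for all eligible genes. After summed-FPKM scaling they were -0.08, 0.23, -0.16 and -0.06, beside -0.01. These lists hold many targets of Gcn4, whose core motif TGACTC was in 6 of 7 histidine, 6 of 10 arginine, 4 of 10 lysine and 5 of 12 aromatic promoters. It was also in 7 of 13 promoters of the leucine, isoleucine and valine list, 3 of 8 of ammonia assimilation and 10 of 16 of the serine list below. TGACTC was in 11.9% of promoters of genes called higher, 6.55% of those called lower and 8.99% of all eligible ones. Serine, glycine, threonine and homoserine genes had 3 higher (23.1%, near the 19.8% of all eligible genes) and 2 lower of 13 (1 and 3 after either scaling). Among them were GCV2 of the glycine cleavage complex (133 FPKM at 2 h against 32.4 FPKM at 0 h) and SHM1, the mitochondrial serine hydroxymethyltransferase, which was lower (46.3 FPKM at 2 h against 95.7 FPKM at 0 h).

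Sulphur assimilation was higher in 10 of 19 eligible genes, with 1 lower and a median of 1.34 (9 and 2, then 7 and 2, after the scalings). The eligible members had a median of 15.3 FPKM at 2 h against 5.47 FPKM at 0 h. Most of them met the level limit only through the 2 h library, so the count of calls leans on that limit. Over all 27 members the median difference was 1.33. MET17, which fixes sulphide into homocysteine, was at 77.8 FPKM (68.3 to 87.3) at 2 h against 2.15 FPKM (0.426 to 3.87) at 0 h. MET13, of the folate branch, stood at 50.8 FPKM at 2 h against 5.32 FPKM at 0 h, the sulphate permease SUL1 at 30.1 FPKM at 2 h against 3.07 FPKM at 0 h, and methionine synthase MET6 at 36.1 FPKM at 2 h against 5.78 FPKM at 0 h. SAM1, which makes S-adenosylmethionine, was lower, at 12.9 FPKM at 2 h against 28.9 FPKM at 0 h, while SAM2, with the same activity, was at 10.4 FPKM at 2 h against 5.11 FPKM at 0 h and was not called. MET28, a regulator, was at 83.4 FPKM at 2 h against 9.26 FPKM at 0 h, but 98.4% of it lies under another row. The CACGTG element of the Cbf1 factor was in 9 of the 27 promoters of this list and in 2.91% of all promoters, with 3.27% among genes called higher and 4.37% among those called lower.

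Vitamin genes were called higher in 6 of 8 eligible members of a list of thiamine, biotin and NAD synthesis, 13 others being under the limits (3 of 7 after either scaling). The eligible members had a median of 29.7 FPKM at 2 h against 7.40 FPKM at 0 h. Many of them met the level limit only through the 2 h library, so the count of calls leans on that limit. Over all 21 members the median difference was 0.64, beside 1.61 over the eligible ones. The leading members, SNZ1 (170 FPKM at 2 h against 11.4 FPKM at 0 h) and SNO1 (32.5 FPKM at 2 h against 3.22 FPKM at 0 h), make vitamin B6, and VHT1 (27.0 FPKM at 2 h against 7.70 FPKM at 0 h) takes up biotin. The Ehrlich route of amino acid breakdown went the other way, with 3 of 6 eligible genes lower and 1, BAT1, higher (4 and 1 after either scaling). ARO10, a decarboxylase, was at 13.5 FPKM (10.5 to 16.5) at 2 h against 231 FPKM (218 to 244) at 0 h. ARO9, an aromatic aminotransferase with 42.0% of it under another row, was at 18.9 FPKM at 2 h against 81.0 FPKM at 0 h. Purine and pyrimidine synthesis had 1 higher and 1 lower gene each as deposited and no higher gene after scaling, the lower ones being ADE13 (8.66 FPKM at 2 h against 18.8 FPKM at 0 h) and URA1 (25.7 FPKM at 2 h against 85.6 FPKM at 0 h).

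Most eligible ribosome assembly genes were lower. Of 125 members 34 were eligible, and 27 of these were called lower and 0 higher, with a median of -1.79 (30 lower and 0 higher after either scaling). The other 91 were under the level or length limit, and over all 125 members the median difference was -1.29. BRX1 (YOL077C, chromosome XV, 185848 to 186723), an assembly factor of the large subunit, had 1.69 FPKM (0 to 3.38) at 2 h against 20.8 FPKM (14.6 to 26.9) at 0 h. RRP36, for early cleavages of the small-subunit precursor, was at 2.84 FPKM at 2 h against 27.3 FPKM at 0 h, EBP2 at 3.15 FPKM at 2 h against 23.6 FPKM at 0 h, and MAK16 at 4.75 FPKM at 2 h against 28.8 FPKM at 0 h. NSR1, a nucleolar protein, was at 0.818 FPKM at 2 h against 10.2 FPKM at 0 h, with 46.8% of it under another row. No eligible member lay above a difference of 0.19. The eligible members had a median of 4.84 FPKM at 2 h against 18.8 FPKM at 0 h. Most of them met the level limit only through the 0 h library, so the count of calls and that highest difference lean on the limit. The promoters of BRX1 (chromosome XV, 186674 to 186973, minus strand) and NOP14 (chromosome IV, 190537 to 190836, minus strand; 1.53 FPKM at 2 h against 11.4 FPKM at 0 h), an assembly factor of the small subunit named after its value was seen, are shown for the PAC element of such genes, GCGATGAG on either strand, in capitals.
BRX1: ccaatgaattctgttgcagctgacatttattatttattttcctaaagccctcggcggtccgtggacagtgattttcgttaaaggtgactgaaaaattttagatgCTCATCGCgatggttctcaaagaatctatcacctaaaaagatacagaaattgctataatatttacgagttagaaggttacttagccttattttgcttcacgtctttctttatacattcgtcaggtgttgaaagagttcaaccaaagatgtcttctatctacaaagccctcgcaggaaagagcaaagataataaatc
NOP14: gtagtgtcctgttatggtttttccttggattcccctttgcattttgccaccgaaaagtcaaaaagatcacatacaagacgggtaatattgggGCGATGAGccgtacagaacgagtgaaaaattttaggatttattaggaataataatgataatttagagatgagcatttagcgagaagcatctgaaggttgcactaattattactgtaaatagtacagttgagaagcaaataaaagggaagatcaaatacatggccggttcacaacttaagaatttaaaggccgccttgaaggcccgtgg

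The match begins at position -146 in BRX1 and -158 in NOP14. GCGATGAG was found in 12.2% of promoters of genes called lower, 1.34% of those called higher and 2.53% of eligible promoters, against 4.05% of all 5675 promoters. In the ribosome assembly list it was in 68 of 124 promoters. The shares were 13.1%, 2.53%, 3.37% and 4.97% with 500 bases before the start.

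The polymerases that make ribosomal and transfer RNA had 3 of 8 eligible genes lower and 0 higher under each scaling. RPA34 and RPA43, subunits of RNA polymerase I, were at 0.569 and 0.730 FPKM at 2 h, against 17.0 and 13.7 FPKM at 0 h, and RPC31, of polymerase III, at 4.11 FPKM at 2 h against 17.0 FPKM at 0 h. Cytosolic ribosomal protein genes were mixed, with 14 of 91 eligible members lower, 5 higher and a median of -0.59 (19 and 2, then 25 and 1, after the scalings). Differences of the eligible members ran from -4.28 to 3.68. The summed level of all 138 members was higher at 2 h, 5549 FPKM against 4516 FPKM at 0 h. The highest member stood at 1983 FPKM at 2 h and none was above 573 FPKM at 0 h, so the summed rise rests on that single row. The median over all members was lower at 2 h, 10.1 FPKM against 14.9 FPKM at 0 h. ASC1, a small-subunit protein, was at 0.751 FPKM at 2 h against 32.9 FPKM at 0 h, RPP2B, of the stalk, at 2.16 FPKM at 2 h against 20.8 FPKM at 0 h and RPS16B at 3.72 FPKM at 2 h against 25.2 FPKM at 0 h. RPS27A went the other way, with 578 FPKM (464 to 691) at 2 h against 93.8 FPKM (47.0 to 140) at 0 h. Many of these genes come in near-identical pairs whose reads the counting could divide either way.

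Translation factors had 8 of 32 eligible genes lower and 1 higher as deposited, with a median of -0.61 (11 and 0, then 15 and 0, after the scalings). SUP45, the termination factor, was at 34.8 FPKM at 2 h against 133 FPKM at 0 h, and GCD11, of initiation factor eIF2, at 10.5 FPKM at 2 h against 37.0 FPKM at 0 h. YEF3, the elongation factor of growing cells, was lower (12.8 FPKM at 2 h against 29.5 FPKM at 0 h), while its paralogue HEF3 was at 183 FPKM at 2 h against 80.4 FPKM at 0 h, called higher as deposited but not after scaling. Cytosolic tRNA synthetases had 2 of 13 lower, DPS1 and THS1 (4 and 5 of 11 after the scalings). Their share as deposited was 15.4%, beside 7.05% of all eligible genes. Mitochondrial ribosomal proteins had 2 lower and 1 higher of 40 (3 and 0, then 8 and 0, after the scalings). As deposited these shares, 5% and 2.5%, lay under the 7.05% lower and 19.8% higher of all eligible genes.

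**Figure D3:**
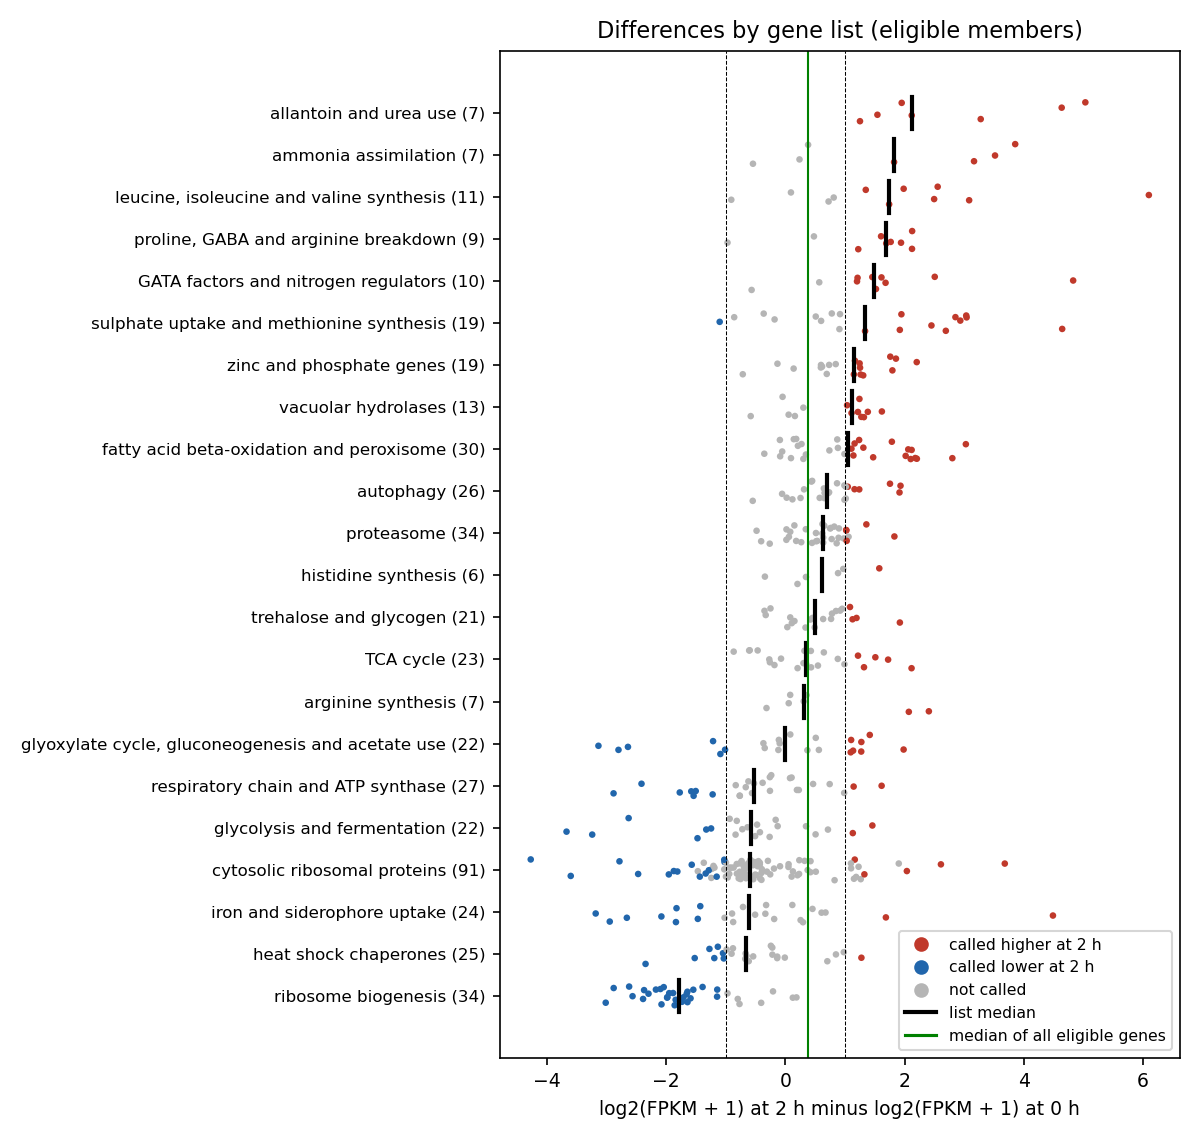
Differences of log2(FPKM + 1), 2 h minus 0 h, for the eligible members of 22 gene lists, whose number is in brackets. Points are genes, red where called higher, blue where called lower; black bars are list medians, the green line is the median of all eligible genes (0.38) and dashed lines mark 2-fold. Allantoin and urea use lies highest (median 2.12) and ribosome biogenesis lowest (-1.79).

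Carbon genes did not go one way. Gluconeogenesis and acetate use, a list of 22 members that were all eligible, had 7 higher and 6 lower with a median of -0.01 (4 and 6, then 2 and 6, after the scalings). PCK1 and FBP1, the enzymes particular to gluconeogenesis, were lower. PCK1 was at 45.0 FPKM (38.9 to 51.0) at 2 h against 404 FPKM (385 to 422) at 0 h, and FBP1 at 29.3 FPKM at 2 h against 188 FPKM at 0 h. ALD6, an acetaldehyde dehydrogenase, was at 8.09 FPKM at 2 h against 62.4 FPKM at 0 h. CAT2, a carnitine acetyltransferase, was higher (361 FPKM at 2 h against 90.5 FPKM at 0 h), as was SIP4, an activator of gluconeogenic genes (215 FPKM at 2 h against 80.1 FPKM at 0 h). The acetate permease ADY2 at 4649.6 FPKM at 2 h against 2115 FPKM at 0 h, and acetyl-CoA synthetase ACS1 at 2832 FPKM at 2 h against 1325 FPKM at 0 h, were among the most abundant genes in both libraries and were called higher as deposited only. ICL1, isocitrate lyase of the glyoxylate cycle, was at 298 FPKM at 2 h against 323 FPKM at 0 h.

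Glycolysis and fermentation had 6 of 22 eligible genes lower and 2 higher, with a median of -0.57 (9 and 1, then 11 and 1, after the scalings). TDH1 and TDH2, glyceraldehyde phosphate dehydrogenases, were at 24.6 and 51.0 FPKM at 2 h, against 326 and 492 FPKM at 0 h, while TDH3 was at 240 FPKM at 2 h against 342 FPKM at 0 h and was not called; 31.3% of TDH2 is shared with related sequence. PFK26 and FBP26, which make and break fructose 2,6-bisphosphate, were at 32.9 and 35.1 FPKM at 2 h against 11.3 and 15.5 FPKM at 0 h, FBP26 called as deposited only. Of the hexose transporters HXT7 and HXT6, near-identical copies of high affinity, were at 4.89 and 4.33 FPKM at 2 h, against 90.1 and 76.0 FPKM at 0 h. HXT2 was higher (52.3 FPKM at 2 h against 16.4 FPKM at 0 h), and so was MIG1, the repressor of glucose-repressed genes (45.7 FPKM at 2 h against 6.95 FPKM at 0 h).

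Of 23 eligible TCA cycle genes 5 were higher (21.7%, near the 19.8% of all eligible genes) and 0 lower as deposited (4 and 1, then 3 and 3, after the scalings, with medians of 0.35, 0.09 and -0.06 beside 0.38, 0.13 and -0.01 for all eligible genes), among them ACO1, aconitase (202 FPKM at 2 h against 70.5 FPKM at 0 h), and PYC1, pyruvate carboxylase (205 FPKM at 2 h against 61.3 FPKM at 0 h). Of 27 eligible genes of the respiratory chain and ATP synthase 7 were lower (25.9%, beside 7.05% of all eligible genes) and 2 higher, with a median of -0.53 (9 and 1, then 11 and 1, after the scalings). ATP4, of the ATP synthase stator, was at 36.9 FPKM (27.8 to 45.9) at 2 h against 279 FPKM (253 to 304) at 0 h, and RIP1, the Rieske protein, at 26.8 FPKM at 2 h against 147 FPKM at 0 h. COX5A, a subunit of cytochrome oxidase, was lower (113 FPKM at 2 h against 331 FPKM at 0 h). CYC7, the cytochrome c isoform of low-oxygen cells, was higher, at 727 FPKM at 2 h against 237 FPKM at 0 h.

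**Figure D4:**
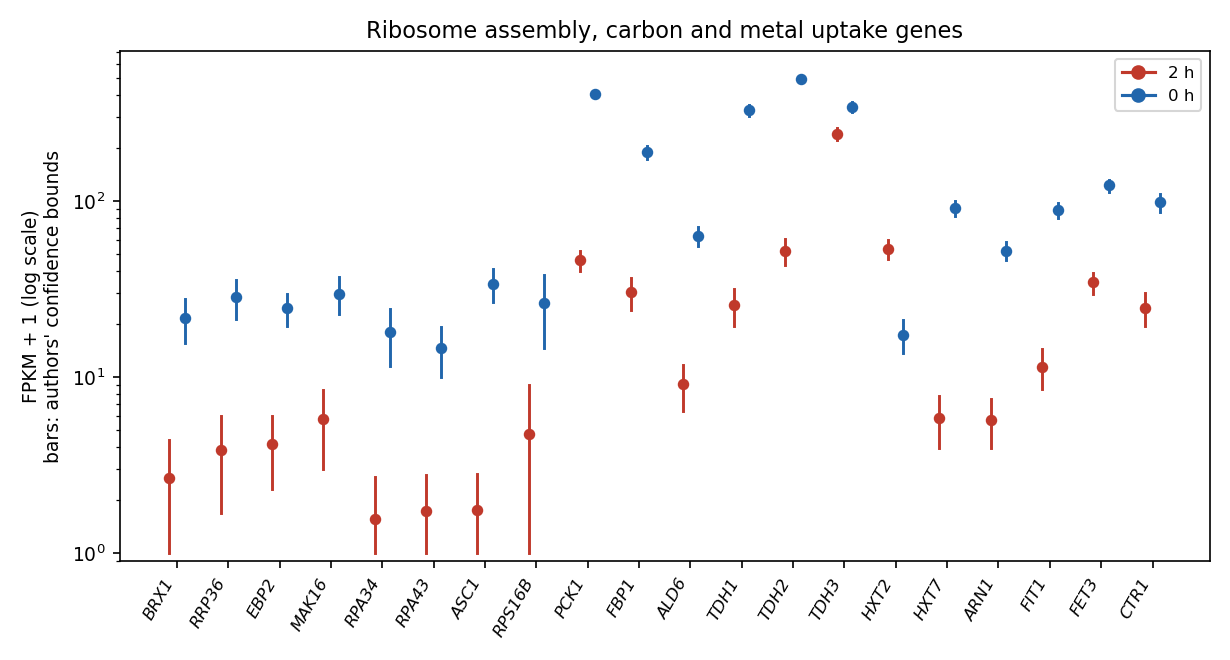
FPKM + 1 on a log scale for 20 genes of ribosome assembly, carbon use and metal uptake, with 2 h (red) left of 0 h (blue) and the authors' confidence bounds as vertical bars. HXT2 is the 1 gene with the higher level at 2 h (52.3 FPKM, against 16.4 FPKM at 0 h), and TDH3 differs least (240 FPKM at 2 h against 342 FPKM at 0 h).

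Peroxisomal beta-oxidation had 15 of 30 eligible genes called higher, 0 lower and 15 not called, with a median of 1.05 (11 and 10 higher after the scalings, with 0 lower). The enzymes of each turn were among them. POX1, acyl-CoA oxidase, was at 130 FPKM at 2 h against 27.3 FPKM at 0 h, FOX2, of the middle steps, at 179 FPKM at 2 h against 51.2 FPKM at 0 h, and POT1, thiolase, at 147 FPKM at 2 h against 33.5 FPKM at 0 h. The isomerases DCI1 and ECI1 were at 43.6 and 98.1 FPKM at 2 h, against 4.46 and 20.9 FPKM at 0 h. CTA1, the peroxisomal catalase, was at 263 FPKM at 2 h against 36.8 FPKM at 0 h and PEX11, which promotes peroxisome division, at 85.6 FPKM at 2 h against 19.7 FPKM at 0 h.

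Genes of self-digestion varied by list, beside a share of 19.8% higher among all eligible genes. Vacuolar hydrolases had 8 of 13 eligible members higher (61.5%) and 0 lower, but 4 after median-of-ratios scaling and 1, APE1 (46.6 FPKM at 2 h against 14.5 FPKM at 0 h), after summed-FPKM scaling. PRB1, protease B, called as deposited only, was at 576 FPKM at 2 h against 267 FPKM at 0 h, and its activator PEP4, protease A, at 158 FPKM at 2 h against 128 FPKM at 0 h. Autophagy had 6 of 26 higher (23.1%, near the share of all genes) and 0 lower (3 after either scaling): ATG1, the kinase that starts the process, was at 96.8 FPKM at 2 h against 24.6 FPKM at 0 h, and ATG8, the tag of autophagic membranes, at 1215 FPKM at 2 h against 770 FPKM at 0 h without a call. Proteasome genes had 5 of 34 higher (14.7%, under the share of all genes), with PRE3 the 1 that was called under each scaling (38.9 FPKM at 2 h against 10.2 FPKM at 0 h), and a median of 0.63.

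General stress genes had 10 of 31 eligible members higher and 2 lower (7 and 2, then 6 and 2, after the scalings). HSP12, a membrane-protecting protein, was at 2192 FPKM at 2 h against 293 FPKM at 0 h, and GRE1 at 69.2 FPKM at 2 h against 5.00 FPKM at 0 h. YGP1, a secreted glycoprotein (220 FPKM at 2 h against 605 FPKM at 0 h), and HSP26 (2.57 FPKM at 2 h against 17.2 FPKM at 0 h) were lower. Heat shock chaperones had 7 of 25 lower and 1 higher and a median of -0.65 (10 and 1, then 14 and 0, after the scalings), HSP82 being at 48.5 FPKM at 2 h against 101 FPKM at 0 h. The stress element AGGGG was in 27.6% of promoters of genes called higher, 18.3% of those called lower and 25.0% of all eligible ones.

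Metal and phosphate genes had calls in both directions. Of 24 eligible iron genes 8 were lower and 2 higher, with a median of -0.61 (11 and 2, then 12 and 2, after the scalings). ARN1, a siderophore transporter, was at 4.73 FPKM (2.94 to 6.52) at 2 h against 51.1 FPKM (45.0 to 57.3) at 0 h, FIT1, a cell wall mannoprotein that holds siderophores, at 10.5 FPKM at 2 h against 87.6 FPKM at 0 h, and FET3, the ferroxidase of iron uptake, at 33.4 FPKM at 2 h against 121 FPKM at 0 h. The higher ones were the biotin transporter VHT1 and ISU2, an iron-sulphur scaffold at 21.5 FPKM at 2 h against 1.95e-07 FPKM at 0 h. Zinc and phosphate genes had 10 of 19 higher and 0 lower, with a median of 1.15 (6 and 0, then 3 and 1, after the scalings). PHO84 and PHO89, phosphate transporters, were at 87.9 and 117 FPKM at 2 h, against 18.3 and 33.7 FPKM at 0 h.

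Start genes of the cell cycle had 6 of 9 eligible members higher and 0 lower (3 and 2 higher after the scalings). CLN1, a G1 cyclin, was at 24.7 FPKM at 2 h against 4.44 FPKM at 0 h, and PCL1, another, at 15.2 FPKM at 2 h against 3.34 FPKM at 0 h. CLN3, the cyclin that opens Start in growing cells, was at 31.2 FPKM at 2 h against 45.6 FPKM at 0 h without a call. Of 22 eligible DNA replication genes 5 were higher (22.7%, near the 19.8% of all eligible genes) and 0 lower. After the scalings 2 and 1 were higher and 0 lower. The widest rise was that of RFA1 of the single-strand binding complex (22.7 FPKM at 2 h against 5.85 FPKM at 0 h). Histones had 2 of 10 higher (20%, also near that share): HHO1, the linker histone, at 98.5 FPKM at 2 h against 12.2 FPKM at 0 h, and, not after summed-FPKM scaling, the variant HTZ1. The core gene HHT2 was at 865 FPKM at 2 h against 963 FPKM at 0 h.

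NCE103, carbonic anhydrase, of the list for carbon dioxide and pH, was at 1548 FPKM at 2 h against 23 FPKM at 0 h. The naming rule also gave genes that stand in no list. NRS1, a regulator of Start named for its response to nitrogen, was at 584 FPKM at 2 h against 38.7 FPKM at 0 h and AAT1, the mitochondrial aspartate aminotransferase, at 39.2 FPKM at 2 h against 1.84 FPKM at 0 h. The lowest relative to 0 h were VHR2 (0.864 FPKM at 2 h against 20.8 FPKM at 0 h) and RKI1, ribose-phosphate isomerase (0.495 FPKM at 2 h against 16.4 FPKM at 0 h). In all 527 of the 719 genes called higher and 139 of the 256 called lower stand in none of the 54 lists, which hold 1394 genes. MIH1, the phosphatase that activates mitotic Cdk (127 FPKM at 2 h against 10.2 FPKM at 0 h), HEM13, of haem synthesis (139 FPKM at 2 h against 12 FPKM at 0 h), TKL2, a transketolase (55.5 FPKM at 2 h against 3.96 FPKM at 0 h), and SDT1 (29.3 FPKM at 2 h against 1.42 FPKM at 0 h) are such genes, chosen after their values were seen. Of reading frames without a standard name, YLR297W (86.6 FPKM at 2 h against 6.50 FPKM at 0 h) and YER088C-A (58.2 FPKM at 2 h against 4.04 FPKM at 0 h) were higher, and YHR033W (16.7 FPKM at 2 h against 49.2 FPKM at 0 h) and YGL149W (61.6 FPKM at 2 h against 169 FPKM at 0 h) lower. YNL146W, YHR125W and YLR416C, at 24.7, 16.1 and 15.4 FPKM at 2 h, were listed at 0 at 0 h.

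The later libraries, which share the 2 h library's course, show how long these levels lasted. In the order 0, 2, 2.25, 2.5 and 2.75 h, MEP2 was at 0.937, 323, 113, 21.0 and 8.44 FPKM, and it stayed between 0.302 and 113 FPKM from 2.25 to 10 h. GAP1 followed the same order at 7.75, 273, 112, 34.0 and 15.7 FPKM, and DAL5 at 0.425, 45.7, 11.4, 1.95 and 1.28 FPKM. MEP2, GAP1 and DAL5 were thus higher at 2 h than at any other of the 23 times. LEU1 kept 208 to 327 FPKM from 2.25 to 3 h and had 640 FPKM at 5 h, and ATG1 lay between 101 and 300 FPKM in every later library, above its 2 h level of 96.8 FPKM. GLN1, not called between 2 h and 0 h, had 19.9 FPKM by 2.25 h but 1044 FPKM by 8 h.

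Genes lower at 2 h divided later into those that returned and those that did not. In the order 0, 2, 2.75, 5 and 10 h, PCK1 was at 404, 45.0, 12.2, 107 and 440 FPKM. ARO10 was at 231, 13.5, 13.9, 59.2 and 331 FPKM in that order, and GNP1 at 55.5, 3.69, 8.50, 52.1 and 172 FPKM. HXT7, TDH1, FBP1, ALD6 and ARN1 did not return, with highest values from 2.25 h on of 5.55, 23.9, 13.6, 10.7 and 5.56 FPKM. The median of the 34 eligible ribosome assembly genes was 18.8, 4.84, 2.42, 11.7 and 32.5 FPKM at 0, 2, 2.25, 5 and 10 h.

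**Figure D5:**
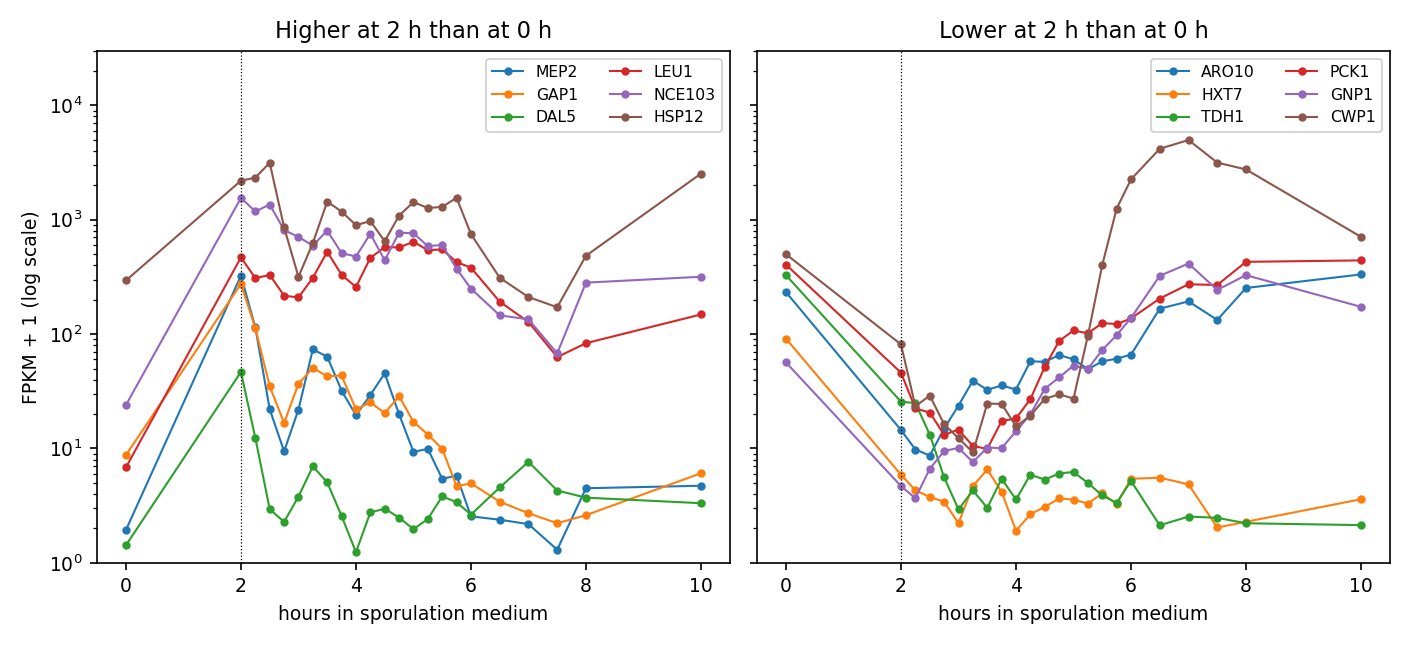
FPKM + 1 on a log scale against hours in sporulation medium, 1 library per time from 0 to 10 h, for 6 genes higher (left) and 6 genes lower (right) at 2 h than at 0 h; the dotted line marks 2 h. MEP2, GAP1 and DAL5 are highest at 2 h, LEU1 stays at 208 FPKM or more to 6 h, and PCK1, ARO10 and GNP1 return by 8 h while HXT7 and TDH1 do not.

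How many genes are called between neighbouring times varies, and the pair of 2 h and 0 h is also 1 of the 2 widest gaps in time. Its share of 26.9% (24.0% after median-of-ratios scaling) compares with 11.8% (9.12%) between 2.25 and 2 h, and with 1.67% to 57.8% (1.01% to 39.8%) over all later neighbours. The pair of 7.5 and 7 h, highest as deposited at 57.8%, had 6.80% after that scaling. The median difference varied with gene length between 0.25 for 600 to 1000 bases and 0.50 for at least 2500 bases, and the share called higher between 16.5% and 24.3% over 5 length classes. Genes just inside the limits, as deposited, were SSU1 (11.4 FPKM at 2 h against 5.18 FPKM at 0 h, difference 1.0) and TIF2 (28.3 FPKM at 2 h against 57.7 FPKM at 0 h, difference -1.0); just outside were CIT2 (433 FPKM at 2 h against 218 FPKM at 0 h, difference 0.99) and GLY1 (8.87 FPKM at 2 h against 18.6 FPKM at 0 h, difference -0.99). Rows with at least 40% of their length under other rows make up 40 of the genes called higher, 48 of those called lower and 335 of all eligible genes.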

How the data were processed

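Per the labels' protocols, the Ambion Ribopure kit gave total RNA, and NuGEN Ovation Universal libraries were primed with random hexamers. Each library has 1 table deposited by the authors, which holds an FPKM value for every gene and confidence bounds on it, per the file headers. Bowtie and Cufflinks 2.2.1 with builds R64 and sacCer3 are named in the submitters' processing notes; annotation, filters and strand setting are not stated there. Reads of a gene and of its antisense partner therefore cannot be separated.

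Of 7132 rows per library 11 with too many fragments for an estimate and 254 naming no gene were left out, and 6867 were joined by identifier. Of 6710 systematic identifiers 6020 matched RefSeq, 99.1% of them at the same position. RefSeq names were used. The small RNA SNR39B held 48.1% of the FPKM summed over all 6867 rows at 2 h and 52.1% at 0 h. From the calls, 339 genes under 300 bases with at least 10 FPKM were left out. Fragments were read from the bounds, taken as 2 standard errors.

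Calls needed a difference of at least 1 in log2(FPKM + 1), with a pseudocount of 1 FPKM, and bounds apart. Overlap was measured against all other rows, and shared sequence in windows of 50 bases against the genome. Alternatives were scalings, pseudocounts, level and length limits, bounds, overlap and fold. Members and lists were chosen with earlier results of these data known. Named were the copper-driven genes, the 15 largest calls each way among genes with a standard name and under 40% overlap, up to 4 called members each way and 2 uncalled members of each list, any member of a list of 12 or fewer, 5 unnamed reading frames each way, and markers. Outside that rule, chosen after their values were seen, are NOP14, MIH1, HEM13, TKL2, SDT1, ALD6, ACS1, COX5A, FET3, FOX2, HSP82, ICL1, ILV3, LEU4, MAK16, MET6, PEX11, POT1, PRB1, SAM2 and YEF3. Not every gene under the rule is reported here. Python 3.11.15, pandas 2.3.3, NumPy 2.4.6 and SciPy 1.17.1 were used.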

Additional observations from a re-analysis of the deposited data

How the results depend on the processing

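Against 719 genes higher and 256 lower, median-of-ratios scaling gave 438 and 373, summed-FPKM scaling 320 and 459, a minimum of 30 FPKM 378 and 142, and a 4-fold limit 163 and 72. Pseudocounts of 0.1 and 5 FPKM, lower level limits, no length limit, no demand on the bounds and leaving out overlapping rows gave 509 to 932 higher and 208 to 351 lower. Of 240 named genes with a call, 35 lost it after median-of-ratios scaling, 58 after summed-FPKM scaling, 30 with a pseudocount of 5 FPKM and 0 with 0.1 FPKM, and none changed direction. Of the 54 list medians 3 changed sign after median-of-ratios scaling, 9 after summed-FPKM scaling and 2 with a minimum of 1 FPKM. With 500 bases before the start the share with GATAAG was 31.4% among genes called higher and 13.5% among those called lower, and with GCGATGAG 2.53% among those called higher. The cause of these shifts was not tested. No paired analysis was possible because each time has 1 library, and for the same reason no library could be left out. Depth limits low genes: at 10 FPKM few fragments stand behind a value of a short gene.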

Other observations

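The cell surface and lipids had members that differed in both directions. Of 27 eligible cell wall genes 4 were higher and 4 lower at 2 h (3 and 5, then 2 and 5, after the scalings). That is 14.8% each way as deposited, beside 19.8% higher and 7.05% lower among all eligible genes. PIR3, a covalently bound wall protein, was at 155 FPKM (140 to 171) at 2 h against 8.62 FPKM (4.95 to 12.3) at 0 h, and CRH1, which links chitin to glucan, at 118 FPKM at 2 h against 24.8 FPKM at 0 h. CWP1, a mannoprotein, was lower, at 80.2 FPKM at 2 h against 498 FPKM at 0 h, and had 2748 FPKM at 8 h. The flocculin genes FLO1, FLO5 and FLO9 were lower too, but share 38.7% to 63.4% of their windows with other sequence. FLO11, an adhesin, was among the most abundant genes in both libraries, 6724 FPKM at 2 h against 5736 FPKM at 0 h, without a call. Ergosterol synthesis had 5 of 24 genes higher (20.8%, near the 19.8% of all eligible genes) and 1 lower (4 and 1 after either scaling). ERG28 was at 44.3 FPKM at 2 h against 6.23 FPKM at 0 h, and ERG6, a sterol methyltransferase, at 620 FPKM at 2 h against 232 FPKM at 0 h. The lower gene was ERG4, of the last step, at 16.3 FPKM at 2 h against 61.1 FPKM at 0 h. INO1, of inositol synthesis, was lower, at 18.3 FPKM at 2 h against 59.5 FPKM at 0 h.

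Of 12 eligible meiotic inducers 4 were called higher (33.3%, beside 19.8% of all eligible genes). These were IME1, IME4, MCK1 and SOK2, the last called as deposited only. The other 8 were not called, with RIM4, an RNA-binding activator of early genes, at 332 FPKM at 2 h against 211 FPKM at 0 h. MCK1, a kinase, was higher (46.4 FPKM at 2 h against 17.1 FPKM at 0 h) except after summed-FPKM scaling. Of the proton pump genes PMA2, the minor isoform, was at 52.3 FPKM at 2 h against 17.7 FPKM at 0 h, and PMA1, the major one, at 44.0 FPKM at 2 h against 23.1 FPKM at 0 h without a call. YRO2, a membrane protein, was lower (8.54 FPKM at 2 h against 37.2 FPKM at 0 h). Trehalose and glycogen genes had 4 of 21 higher (19.0%, near the 19.8% of all eligible genes) and 0 lower as deposited. PIG1 was the 1 called higher after either scaling (27.9 FPKM at 2 h against 6.62 FPKM at 0 h). Of 22 eligible nuclear pore genes NUP120 was higher (13.5 FPKM at 2 h against 4.28 FPKM at 0 h) and SEH1 lower (22.8 FPKM at 2 h against 59.9 FPKM at 0 h) under each scaling.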
